A study of Mus musculus with 4 samples.

Results

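The collagen IV genes Col4a1, Col4a2, Col4a3, Col4a4, Col4a5 and Col4a6 were followed in single nuclei of mouse back skin, in wounds 1 day old and in unwounded skin. They were chosen by symbol, and all 6 were found among the 32285 genes of the count matrices. The mice were wild-type C57BL/6 animals aged 8 weeks. In the wounded group, full-thickness excisions in the back skin of 2 mice were harvested 1 day after wounding, and in the unwounded group intact back skin came from 2 other mice. Each mouse gave 1 library of nuclear RNA, made with a droplet kit that counts 3′ ends by unique molecular identifiers (UMIs). No allele, drug or sorted cell type was involved, and the label for the cells is a mixture of skin cells.

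Collagen IV is the network-forming collagen of basement membranes, the thin matrix sheets beneath epithelia and around vessels, muscle, nerve and fat cells. Its alpha chains join as heterotrimers inside the cell. The products of Col4a1 and Col4a2 form the trimer found in most basement membranes, those of Col4a3, Col4a4 and Col4a5 the trimer known best from the kidney glomerulus, and those of Col4a5 and Col4a6 a trimer of the epidermal and smooth muscle basement membranes. In people, loss of COL4A3, COL4A4 or COL4A5 causes Alport syndrome. The genes lie as head-to-head pairs that are transcribed away from each other.

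In the mouse annotation (GENCODE vM21, GRCm38), Col4a1 (minus strand, chr8:11198423-11312826) and Col4a2 (plus strand, chr8:11312805-11449287) shared 22 bases at their starts. Col4a3 (plus strand, chr1:82586921-82722059) and Col4a4 (minus strand, chr1:82448423-82586849) were separated by 71 bases. Col4a5 (plus strand, chrX:141475385-141689234) and Col4a6 (minus strand, chrX:141165403-141474076) were separated by 1308 bases. The spans ran from 114 kb for Col4a1 to 309 kb for Col4a6. The widths of the gaps matter here because each pair is contrasted below, so the windows around the starts of the most and the least closely spaced pairs are shown. They come from RefSeq (GRCm38.p6), which matched 5 of the 6 genes, and hold 250 bases before and 50 after each start, 5′ to 3′ on the gene's strand. Capitals mark 3 motifs searched on both strands: GGGCGG, called a GC box here, the pentamer CCAAT, called a CCAAT box, and the promoter hexamer TATAAA, called a TATA box. The windows were Col4a1 chr8:11312777-11313076 (minus), Col4a2 chr8:11312555-11312854 (plus), Col4a5 chrX:141475169-141475468 (plus) and Col4a6 chrX:141474027-141474326 (minus).
Col4a1: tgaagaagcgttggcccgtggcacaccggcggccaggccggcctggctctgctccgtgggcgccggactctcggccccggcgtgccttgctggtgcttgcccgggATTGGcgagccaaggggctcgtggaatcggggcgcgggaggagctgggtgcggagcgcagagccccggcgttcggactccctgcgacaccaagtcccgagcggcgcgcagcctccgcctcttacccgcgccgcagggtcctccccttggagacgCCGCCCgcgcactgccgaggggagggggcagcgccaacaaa
Col4a2: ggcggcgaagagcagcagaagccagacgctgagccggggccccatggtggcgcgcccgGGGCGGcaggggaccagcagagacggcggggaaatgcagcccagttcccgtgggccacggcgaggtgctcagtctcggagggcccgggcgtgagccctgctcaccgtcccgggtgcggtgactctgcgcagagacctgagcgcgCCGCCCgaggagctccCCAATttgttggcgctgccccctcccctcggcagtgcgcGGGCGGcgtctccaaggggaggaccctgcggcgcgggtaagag
Col4a5: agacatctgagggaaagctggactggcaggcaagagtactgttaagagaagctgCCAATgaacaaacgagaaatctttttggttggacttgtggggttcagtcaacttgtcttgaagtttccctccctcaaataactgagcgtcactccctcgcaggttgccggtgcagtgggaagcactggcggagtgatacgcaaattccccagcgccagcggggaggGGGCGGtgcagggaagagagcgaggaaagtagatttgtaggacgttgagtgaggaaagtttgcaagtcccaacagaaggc
Col4a6: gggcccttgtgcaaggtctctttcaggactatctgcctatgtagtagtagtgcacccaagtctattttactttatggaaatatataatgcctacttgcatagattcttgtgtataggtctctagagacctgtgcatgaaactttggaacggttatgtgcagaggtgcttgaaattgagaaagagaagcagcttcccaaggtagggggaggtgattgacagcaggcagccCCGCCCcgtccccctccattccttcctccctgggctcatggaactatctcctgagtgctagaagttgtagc

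The Col4a1 and Col4a2 windows overlapped by 78 bases, and 1 GC box lay in both. The Col4a1 window held 1 GC box and 1 CCAAT box, the Col4a2 window 3 GC boxes and 1 CCAAT box, the Col4a5 window 1 of each and the Col4a6 window 1 GC box. The TATA box was in none of these windows, and no match overlapped another. Of the 32851 promoter windows of the same length in the table, 35.7% held a GC box, 37.4% a CCAAT box and 13.6% a TATA box. The Col4a1 and Col4a2 windows held 37 and 33 CpG dinucleotides, those of Col4a4 14, Col4a5 11 and Col4a6 3, beside a median of 7 over all windows. The Col4a4 window held none of the motifs. The windows of the pair on chromosome 8 were thus rich in CpG and that of Col4a6 was poor in it.

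After filtering, the wounded libraries held 2297 and 3706 nuclei with 1049098 and 1259168 UMIs, and the unwounded libraries 6575 and 9001 nuclei with 7804559 and 5935706 UMIs. Nuclei here are the barcodes that passed the filters. Between 4 and 29 barcodes were shared by any pair of libraries. The wounded libraries stood apart. Malat1, a nuclear RNA abundant in almost every nucleus, made up 0.139% and 0.259% of UMIs in wounded and 9.32% and 8.18% in unwounded libraries. No Malat1 UMI was found in 74.0% and 61.6% of wounded barcodes and in 0% of unwounded ones, and whether these barcodes are intact nuclei was not tested. Levels are given in CPM, UMIs scaled to a library total of 1000000. Olfactory and vomeronasal receptor genes, which skin does not use, gave 0.534 and 0.511 CPM per kb of gene in wounded and 0.00713 and 0.01000 in unwounded libraries. At that density over every gene, counts that follow gene length would make up 66.4% and 63.6% of wounded and 0.887% and 1.24% of unwounded UMIs. Since the collagen IV genes are long, wounded levels below are given with their ratio to the level expected from length. Fibroblast markers (9 genes, none at 0) summed to 650 and 710 CPM in wounded and 11215 and 12021 CPM in unwounded libraries, and basal keratinocyte markers (6 genes, 1 at 0 in each wounded library) to 621 and 673 against 300 and 393 CPM. The part of these differences in the results below was not tested.

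In unwounded skin the 3 pairs had their highest levels in different nuclei. Nuclei were clustered without the 6 genes and named by marker genes. Col4a1 and Col4a2 were highest in adipocyte-like nuclei and Col4a3 and Col4a4 in fibroblast-like nuclei. Col4a5 and Col4a6 were highest in a cluster led by Dsg1a and Skint6, in which all 6 basal keratinocyte markers were at least 2-fold above other nuclei. It kept no name because another marker list scored close to the basal one, and Dsg1a itself is on the suprabasal keratinocyte list. The levels are means ± SD over 2 libraries, and they describe the 12 clusters with no test. Macrophage- and dendritic-like nuclei, which are not known for making collagen IV, served as a gauge of free RNA. They held 36.2 CPM of Col4a1, 35.2 of Col4a2, 46.4 of Col4a3, 60.7 of Col4a4, 27.7 of Col4a5 and 15.3 of Col4a6, and levels at or under these are read as background.

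Col4a1, the more abundant chain of the common trimer, was 502 and 292 CPM in adipocyte-like nuclei (397 ± 149). Endothelial-like nuclei followed at 150 ± 14.1 CPM, smooth muscle-like nuclei at 136 ± 72.4 and fibroblast-like nuclei at 124 ± 55.2 CPM. Both adipocyte-like values lay above all of these, which overlapped among themselves. Skeletal muscle-like nuclei (9.67 CPM) were under the macrophage level, and sebocyte-like nuclei held 71.9 CPM in 1 library and 0 in the other. Col4a2, its partner in the trimer, was 270 and 216 CPM in adipocyte-like nuclei (243 ± 38.7), apart from 123 ± 85.0 in smooth muscle-like, 98.8 ± 37.8 in fibroblast-like and 95.2 ± 45.7 CPM in endothelial-like nuclei. Per kb of gene, adipocyte-like nuclei held a level of 3.47 CPM of Col4a1 and 1.78 CPM of Col4a2. Among named types, with unnamed clusters left out, the adipocyte-like nuclei stayed highest for both genes in each of 9 other ways of clustering or naming.

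Col4a3 was 286 and 199 CPM in fibroblast-like nuclei (242 ± 61.2) and Col4a4 was 252 and 195 CPM (224 ± 40.2). This was 1 cluster of 613 and 558 nuclei, led by Spag17, and no other cluster reached either level. Large unnamed clusters led by Ccnb1ip1 and by Adarb2 held 155 ± 45.9 and 146 ± 9.41 CPM of Col4a3 and 99.9 ± 36.9 and 94.7 ± 5.05 CPM of Col4a4, and one led by Mybpc2 held 98.9 and 92.7 CPM of Col4a4. Sebocyte-like nuclei held the least of both genes, 5.52 ± 1.82 CPM of Col4a3 and 16.6 ± 5.47 CPM of Col4a4. When nuclei were instead assigned by their own marker UMIs, fibroblast nuclei held 157 and 129 CPM of Col4a3 and 116 and 100 CPM of Col4a4, the highest of the types measured that way. That assignment takes in most of the unwounded nuclei (5122 and 6985), so it is a broad class. Among named types only, fibroblast-like nuclei were highest for this pair in 6 of the 9 other ways of clustering or naming. The remaining 3 named no fibroblast-like cluster. Unnamed clusters were left out of these rankings.

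Col4a6 was 340 and 264 CPM in the cluster led by Dsg1a (302 ± 53.4), apart from all other clusters. Sebocyte-like nuclei held 165 and 102 CPM (133 ± 44.4) and smooth muscle-like nuclei 163 and 49.2 CPM (106 ± 80.5), which overlapped. The sebocyte level rests on the naming: it was 0 by marker UMIs, from only 22 and 28 nuclei, and between 32.7 and 35.8 CPM in 3 of the other ways of clustering. Fibroblast-, endothelial- and skeletal muscle-like nuclei held between 11.1 and 13.9 CPM, under the macrophage level. Col4a5 was 182 and 123 CPM in the same cluster (152 ± 41.6) and 173 and 116 CPM in sebocyte-like nuclei (145 ± 40.8), which overlapped. Nuclei assigned to basal keratinocytes by marker UMIs (56 and 54) held more of both, with 643 and 615 CPM of Col4a6 and 307 and 369 CPM of Col4a5. At resolution 2, where a basal keratinocyte-like cluster could be named, it averaged 411 CPM of Col4a6 and 189 CPM of Col4a5.

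Col4a5 was also present where Col4a6 was low. Skeletal muscle-like nuclei held 79.5 and 69.2 CPM of Col4a5 against 7.80 and 14.4 CPM of Col4a6, or 0.348 ± 0.0342 against 0.0360 ± 0.0152 CPM per kb. Their Col4a5 level lay above, and their Col4a6 level below, the macrophage level in both libraries. Endothelial-like nuclei showed the same split, with 81.8 and 48.4 CPM of Col4a5 against 13.1 and 9.67 CPM of Col4a6. By marker UMIs, skeletal muscle nuclei held 83.6 and 66.1 CPM of Col4a5 against 19.8 and 29.4 CPM of Col4a6, where macrophage nuclei held 16.0 and 11.8 CPM of Col4a6. In blood endothelial nuclei named that way the split was not seen in both libraries, with 65.9 and 14.7 CPM of Col4a5 against 28.2 and 14.7 CPM of Col4a6, from 7 UMIs or fewer. In the cluster led by Dsg1a the order was the other way, at 0.713 ± 0.195 CPM per kb of Col4a5 and 0.979 ± 0.173 of Col4a6.

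**Figure D1:**
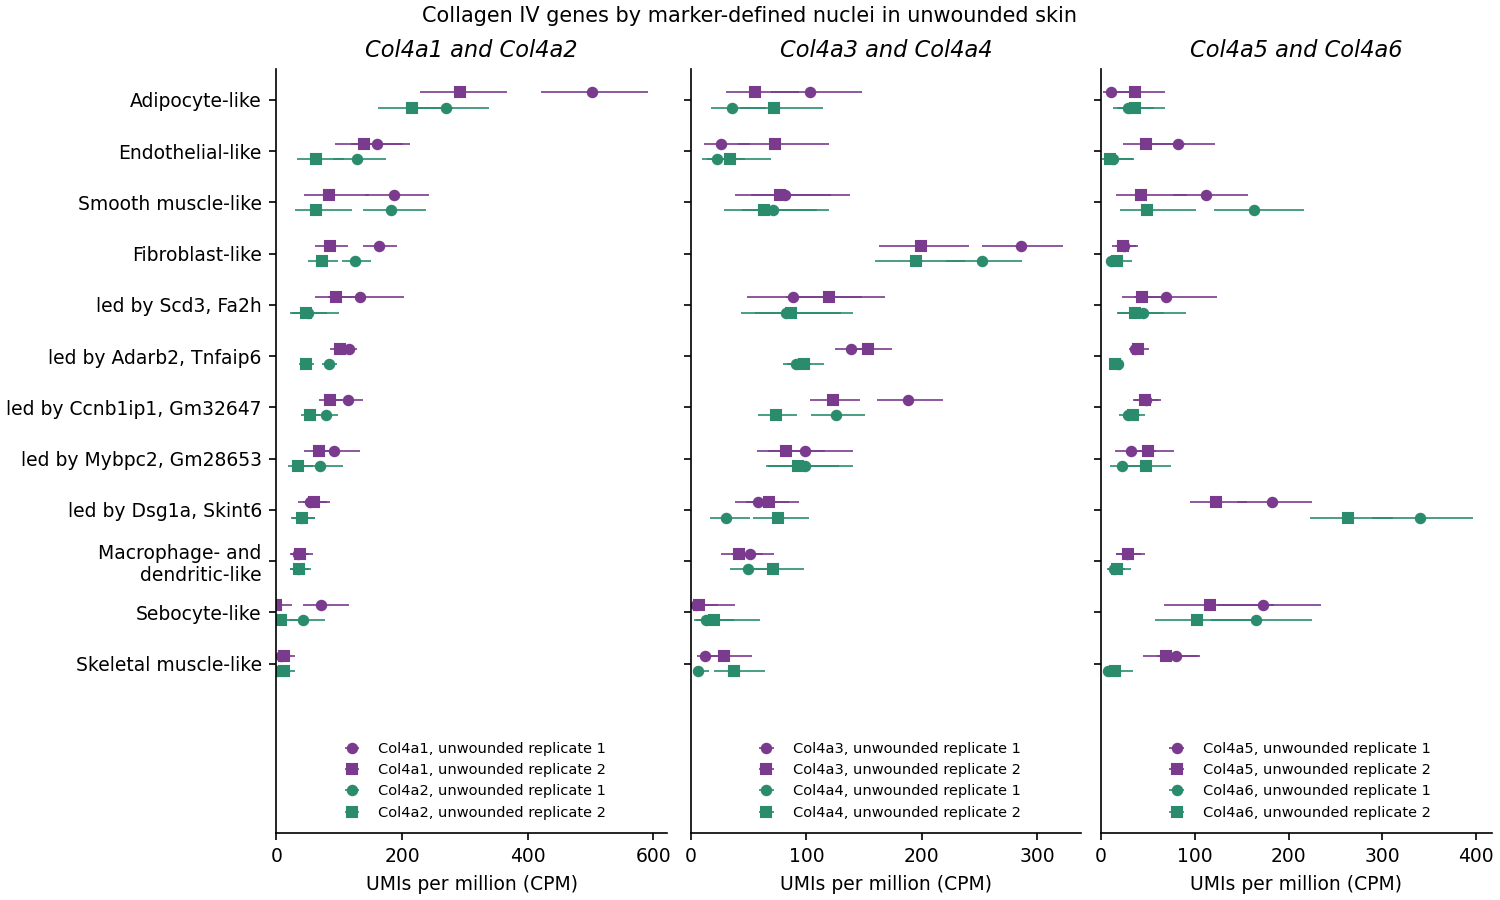
CPM of each collagen IV gene in 12 clusters of unwounded nuclei, named by markers or by their leading genes, 1 panel per head-to-head pair, with 95% Poisson intervals for counting error. Col4a1 and Col4a2 peak in adipocyte-like nuclei (292 CPM or more of Col4a1), Col4a3 and Col4a4 in fibroblast-like nuclei and Col4a6 in the cluster led by Dsg1a and Skint6, and skeletal muscle-like nuclei hold Col4a5 (79.5 and 69.2 CPM) with little Col4a6.

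How alike the chains of a pair were was described by Pearson's r of log2 CPM over 14 points, the named types in each of 2 libraries, which share their libraries and depth, among 8067 genes. The points leave out the unnamed clusters, among them the one led by Dsg1a in which Col4a5 and Col4a6 were highest. Col4a2 had r = 0.90 with Col4a1 and ranked 12 among the genes most like it. Nearest to Col4a1 were Lrrc8a, a subunit of volume-regulated anion channels, Pmepa1, Hoxc9, Svbp and Pak1ip1 (0.92 to 0.95), and nearest to Col4a2 were Hoxc9, Cyp2f2, Dok6, Sntg2 and Prkd1 (0.92 to 0.95). Col4a4 had r = 0.86 with Col4a3, which put it at rank 106 for Col4a3, and Col4a3 at rank 84 for Col4a4. Nearest to Col4a3 were Fbln1, which encodes the matrix protein fibulin-1, Celf2, Adamts6, Galnt16 and Mmp2, a gelatinase (0.94 to 0.97), and nearest to Col4a4 were Pcolce2, which aids the processing of fibrillar procollagen, Eda, Pde3a, Ifi205 and Lvrn (0.93 to 0.95). Col4a6 had r = 0.50 with Col4a5, which put it at rank 357 for Col4a5, and Col4a5 at rank 738 for Col4a6. Its nearest genes were Lgr6, a marker of epithelial stem cells, Tfap2a, an epidermal transcription factor, Prlr, Dgki and Stk38l (0.90 to 0.91), while those of Col4a5 were Kalrn, Kcnd2, Smarca5, Clasp1 and Zfp608 (0.83 to 0.86). These values are descriptions of few points.

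Chains of a pair were also looked for in the same nucleus, with every nucleus thinned to 500 UMIs and shallower ones left out. In fibroblast-like nuclei of the unwounded libraries, Col4a4 was found in 19.3% and 13.8% of nuclei with a Col4a3 UMI and in 8.97% and 7.94% of those without one. This used 592 and 369 nuclei, and left out 21 and 189. In macrophage- and dendritic-like nuclei these shares were 7.69% and 14.3% against 2.21% and 2.78%, each from 1 nucleus with both chains. In the unnamed cluster led by Adarb2 they were 17.3% and 18.6% against 3.95% and 4.16%, from 19 and 13 nuclei with both chains. The difference was thus not seen in fibroblast-like nuclei alone. Adipocyte-like nuclei gave 0% in both libraries against 1.79% and 5.70%, from 9 and 4 nuclei with a Col4a3 UMI, too few to show an absence. Without thinning the shares there were 6.25% and 23.1% against 2.92% and 3.51%, from 1 and 3 nuclei with both chains. In adipocyte-like nuclei Col4a2 was found in 28.9% and 13.6% of nuclei with Col4a1 and in 11.3% and 11.4% of those without. Nuclei with both chains numbered 11 and 4 for Col4a3 and Col4a4 in fibroblast-like nuclei and 11 and 3 for Col4a1 and Col4a2 in adipocyte-like nuclei, so these shares rest on few nuclei.

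The question for the wounds was whether the 6 genes changed 1 day after injury. Over all nuclei, Col4a1 and Col4a3 fell and Col4a6 rose, while Col4a2, the partner of Col4a1, did not pass the test. Wounded libraries were compared with unwounded ones by edgeR's quasi-likelihood test on summed UMIs (TMM scaling, Benjamini-Hochberg adjustment over 20588 genes, threshold 0.05). Of the 6 genes 1 rose, beside 46.8% of all genes tested, and 2 fell, beside 37.3% of all genes, so the counts are not a result about the family. The median of all genes was a log2 fold change of 0.37 with TMM and 0.58 with RLE scaling. In such totals, fewer nuclei of a type and less RNA per nucleus cannot be told apart.

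Col4a1 was 66.7 and 48.4 CPM in wounded libraries, against 118 and 86.1 CPM in unwounded libraries. Both wounded values lay below both unwounded ones. Its log2 fold change was -1.57 ± 0.20 (SE, n = 2 libraries a group, edgeR adjusted p = 2.9e-07), and it was called in all 14 alternatives run. Col4a2 was 111 and 109 CPM in wounded and 84.3 and 52.9 CPM in unwounded libraries. The wounded values were the higher ones before scaling, and the scaled log2 fold change was -0.06 ± 0.19 (edgeR adjusted p = 0.78). It passed the threshold as higher when libraries were thinned to equal UMI totals (0.59, edgeR adjusted p = 0.0069) and as lower without unwounded replicate 2 (-0.37, edgeR adjusted p = 0.015).

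Col4a3 was 126 and 92.1 CPM in wounded and 125 and 108 CPM in unwounded libraries, which overlapped. Relative to the scaling it fell, with a log2 fold change of -0.84 ± 0.17 (edgeR adjusted p = 1.0e-04). This call was lost when libraries were thinned (-0.23, edgeR adjusted p = 0.23), when length-expected counts were subtracted (-0.83, edgeR adjusted p = 0.087) and without wounded replicate 2 (-0.45, edgeR adjusted p = 0.082). Col4a4 was 128 and 122 CPM in wounded and 92.6 and 87.4 CPM in unwounded libraries, with a scaled log2 fold change of -0.26 ± 0.15 (edgeR adjusted p = 0.11). It was called lower without either unwounded library (-0.33 and -0.32, edgeR adjusted p = 0.033 and 0.032), and higher when thinned (0.50, edgeR adjusted p = 0.0088).

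Col4a5 was 63.9 and 75.4 CPM in wounded and 56.2 and 50.7 CPM in unwounded libraries. Its unscaled values were the higher ones in wounds, and the scaled log2 fold change was -0.35 ± 0.18 (edgeR adjusted p = 0.082). Without either unwounded library it was called lower (-0.37 and -0.43, edgeR adjusted p = 0.042 and 0.012). Col4a6 was 126 and 118 CPM in wounded libraries, against 47.2 and 48.5 CPM in unwounded libraries. The groups were far apart, and it rose by 0.62 ± 0.16 on the log2 scale (edgeR adjusted p = 0.0015).

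Against the level expected from gene length, the wounded values stood between 0.707 and 1.56 times. The gauge here was nearly silent genes of the same kind of chromosome, picked as under 1 CPM in both unwounded libraries. With it, the wounded values were 0.946 and 0.707 times expectation for Col4a1, 1.31 and 1.33 for Col4a2, 1.51 and 1.14 for Col4a3, at least 1.47 for Col4a4, 1.09 and 1.43 for Col4a5 and 1.49 and 1.56 for Col4a6. The 95% counting intervals lay above 1 in both libraries for Col4a2 (1.09 to 1.58 and 1.12 to 1.57), Col4a4 (1.25 to 1.77 and 1.24 to 1.72) and Col4a6 (1.25 to 1.77 and 1.32 to 1.83). Single silent genes of 50 kb or more reached up to 1.69 in both wounded libraries on autosomes and 2.07 and 1.90 on the X chromosome (95th percentile), and each of the 6 genes lay under those limits. In unwounded libraries the same ratios ran from 43.4 to 165. The wounded level of Col4a6 thus lay within the range of silent X-linked genes. In unwounded libraries the comparison is set by the rule that picked those genes, and no range was taken there. Against the receptor genes, which were not picked by their counts, the unwounded ratios of the members ran from 15.7 to 145. With length-expected counts at the density of X-linked silent genes subtracted, Col4a6 was still higher (0.97, edgeR adjusted p = 0.0079). At the density of the receptor genes its wounded counts became 0 and its fitted change was -10.42, so the direction turned on the gauge.

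**Figure D2:**
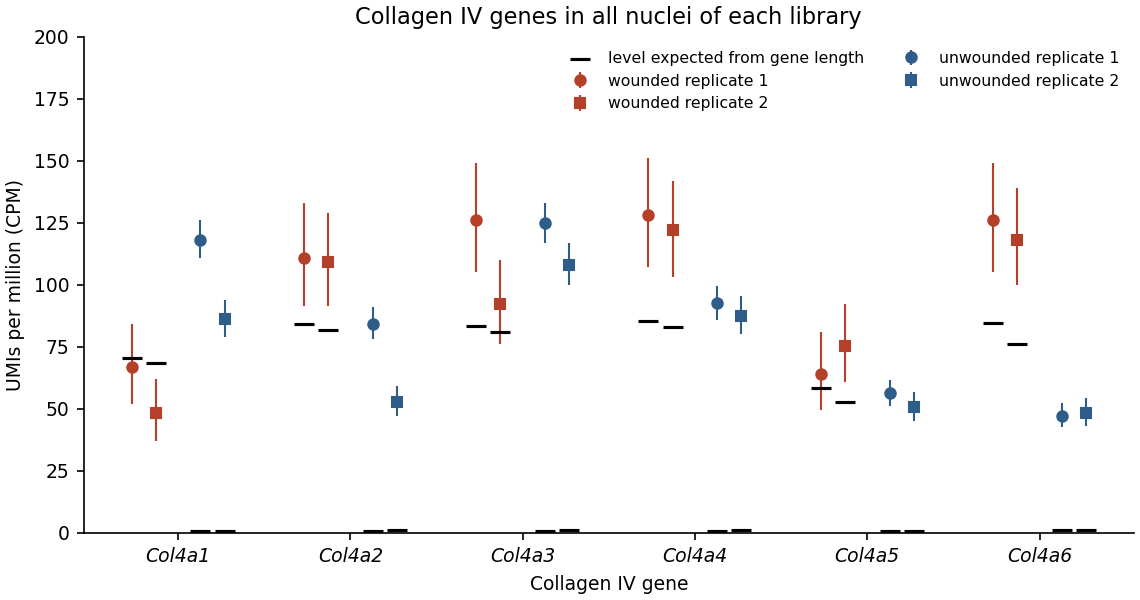
CPM of the 6 genes over all nuclei of each wounded and unwounded library, with 95% Poisson intervals, and the level expected from gene length in the same library (black bars, from nearly silent genes of the same kind of chromosome). In wounded libraries every gene lies between 0.707 and 1.56 times that level. In unwounded libraries, where the silent genes were picked for low counts, the expected level is close to 0.

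The balance within each pair was then compared as the share of the first chain in the pair's UMIs, which needs no scaling between libraries. Col4a1 made up 37.6% (95% exact binomial interval 30.7 to 45.0) and 30.8% (24.5 to 37.7) of the Col4a1 and Col4a2 UMIs in wounded libraries, against 58.3% (55.9 to 60.8) and 61.9% (58.5 to 65.3) in unwounded libraries. Neither wounded interval reached the unwounded ones. Col4a3 made up 49.6% and 43.1% of its pair in wounded and 57.5% and 55.3% in unwounded libraries. Col4a5 made up 33.7% and 38.9% in wounded and 54.4% and 51.1% in unwounded libraries. For all 3 pairs both wounded shares lay below both unwounded ones. Among barcodes with a Malat1 UMI this no longer held for Col4a3, at 64.2% and 50.9% in wounded and 57.5% and 55.3% in unwounded libraries. By gene length alone the shares would be 45.6% for Col4a1, 49.4% for Col4a3 and 40.9% for Col4a5. The Col4a1 share lay under its length share in both wounded libraries, and the interval ended below it in both. With 2 libraries a group an exact permutation test cannot go below p = 0.33, and none was run. Intervals cover counting error only.

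**Figure D3:**
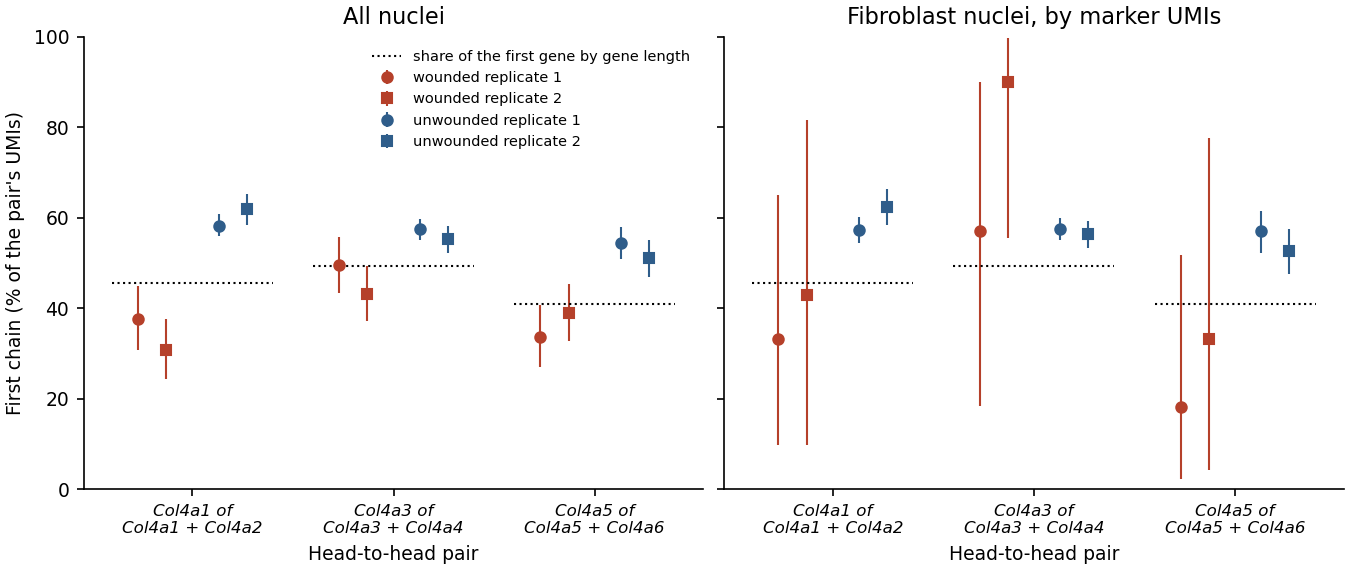
Share of the first chain in the UMIs of each head-to-head pair, by library, over all nuclei and in nuclei assigned to fibroblasts by marker UMIs, with 95% exact binomial intervals and the share given by gene length (dotted). Over all nuclei the wounded shares of Col4a1 (37.6% and 30.8%) lie well below the unwounded ones (58.3% and 61.9%), while in fibroblast nuclei the wounded intervals are too wide to show a difference for most pairs.

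Within types, nuclei of both groups were assigned by marker UMIs, because no cluster held enough nuclei of every library, and 4 types had at least 30 nuclei in each library. Each nucleus needed UMIs of at least 2 different markers of its type. Sums of a type's own markers below are thus raised by the rule and do not test identity. Length expectations of the members within types come from the receptor genes, with X-linked members scaled for the X chromosome. Few members passed, and those that did were near the length expectation or rested on few UMIs. Fibroblast nuclei numbered 65 and 86 in wounded and 5122 and 6985 in unwounded libraries, and their fibroblast markers summed to 5374 and 6387 CPM in wounded and 13879 and 14211 CPM in unwounded nuclei. Blood endothelial markers (12 genes) summed there to 901 and 674 CPM, with 4 and 6 at 0, against 160 and 220 CPM. Of the 6 genes 0 rose, beside 7.37% of the 12210 genes tested with edgeR, and 0 fell, beside 15.9%. At unadjusted p under 0.05 there were 2, Col4a4 and Col4a6.

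Col4a2 was 257 and 128 CPM in wounded fibroblast nuclei, from 8 and 4 UMIs, against 91.0 and 51.3 CPM in unwounded ones. Both wounded values were above both unwounded ones, at 5.87 and 2.05 times the length expectation, and the log2 fold change was 0.48 ± 0.62 (edgeR adjusted p = 0.57). Col4a1 was 129 and 96.3 CPM against 122 and 85.4 CPM, which overlapped, with a log2 fold change of -0.83 ± 0.55 (edgeR adjusted p = 0.28). Col4a3 was 129 and 289 CPM in wounded and 157 and 129 CPM in unwounded nuclei, which overlapped, with -0.40 ± 0.42 (edgeR adjusted p = 0.48). Col4a5 was 64.4 and 64.2 CPM against 44.6 and 45.8 CPM, from 2 wounded UMIs a library, with -0.44 ± 0.60 (edgeR adjusted p = 0.64). The median of all genes in this fit was -1.37. None of these 4 was shown to differ in this fit. Without a filter on low counts Col4a1 and Col4a3 were lower (-1.62 and -1.19, edgeR adjusted p = 0.012 and 0.023).

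Col4a4 was 96.5 and 32.1 CPM in wounded fibroblast nuclei, from 3 and 1 UMIs, against 116 and 100 CPM in unwounded ones. Both wounded values lay below, and the log2 fold change of -1.70 ± 0.57 did not pass (edgeR adjusted p = 0.060). It passed without wounded replicate 1 (-2.77, edgeR adjusted p = 0.038), after subtraction of the length expectation (-2.40, 0.026) and without a filter on low counts (-2.48, 4.7e-04). Col4a6 was 290 and 128 CPM in wounded nuclei, from 9 and 4 UMIs, against 33.6 and 41.3 CPM in unwounded ones. Both wounded values lay above, at 6.59 and 2.21 times the length expectation scaled for the X chromosome, with a log2 fold change of 1.53 ± 0.51 (edgeR adjusted p = 0.058). It passed with RLE scaling (1.65, edgeR adjusted p = 0.034) and without wounded replicate 2 (1.94, edgeR adjusted p = 0.022).

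Fibroblast-like clusters gave other calls. With wounded clusters of resolution 2, set against unwounded clusters of resolution 1, 4 of 6 random seeds of the clustering allowed a fit. With seed 1 the wounded cluster was led by Cntfr and Tnfaip6, and the unwounded one by Spag17 and Nxph1. Tnfaip6 and Cyp7b1 were instead among the leading genes of the unnamed unwounded cluster led by Adarb2. Unwounded Col4a4 averaged 224 CPM in the cluster led by Spag17 and 94.7 CPM in the one led by Adarb2. The part of such subset differences in the calls was not tested. Col4a2 was higher in wounded nuclei with each of the 4 seeds that allowed a fit, with log2 fold changes of 1.53, 1.56, 1.12 and 0.95 (edgeR adjusted p between 1.6e-04 and 0.0087). Col4a6 was higher with the 3 of these seeds in which it was tested (2.30, 2.31 and 2.64), and Col4a4 was lower in 3 (-1.75, -2.26 and -0.74) with -0.44 and no call in the other. Of all genes tested, the share called higher was 21.6%, 17.5%, 30.1% and 32.3% with seeds 1 to 4, beside 2 of 6, 1 of 4, 2 of 6 and 2 of 6 members. The share called lower was 19.3%, 18.3%, 30.8% and 31.3%, beside 1, 1, 0 and 3 members, so these counts are not a result about the family. The nuclei in these clusters varied from 87 to 703 in a wounded library. The Col4a2 difference thus appeared with clusters and not with marker UMIs.

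**Figure D4:**
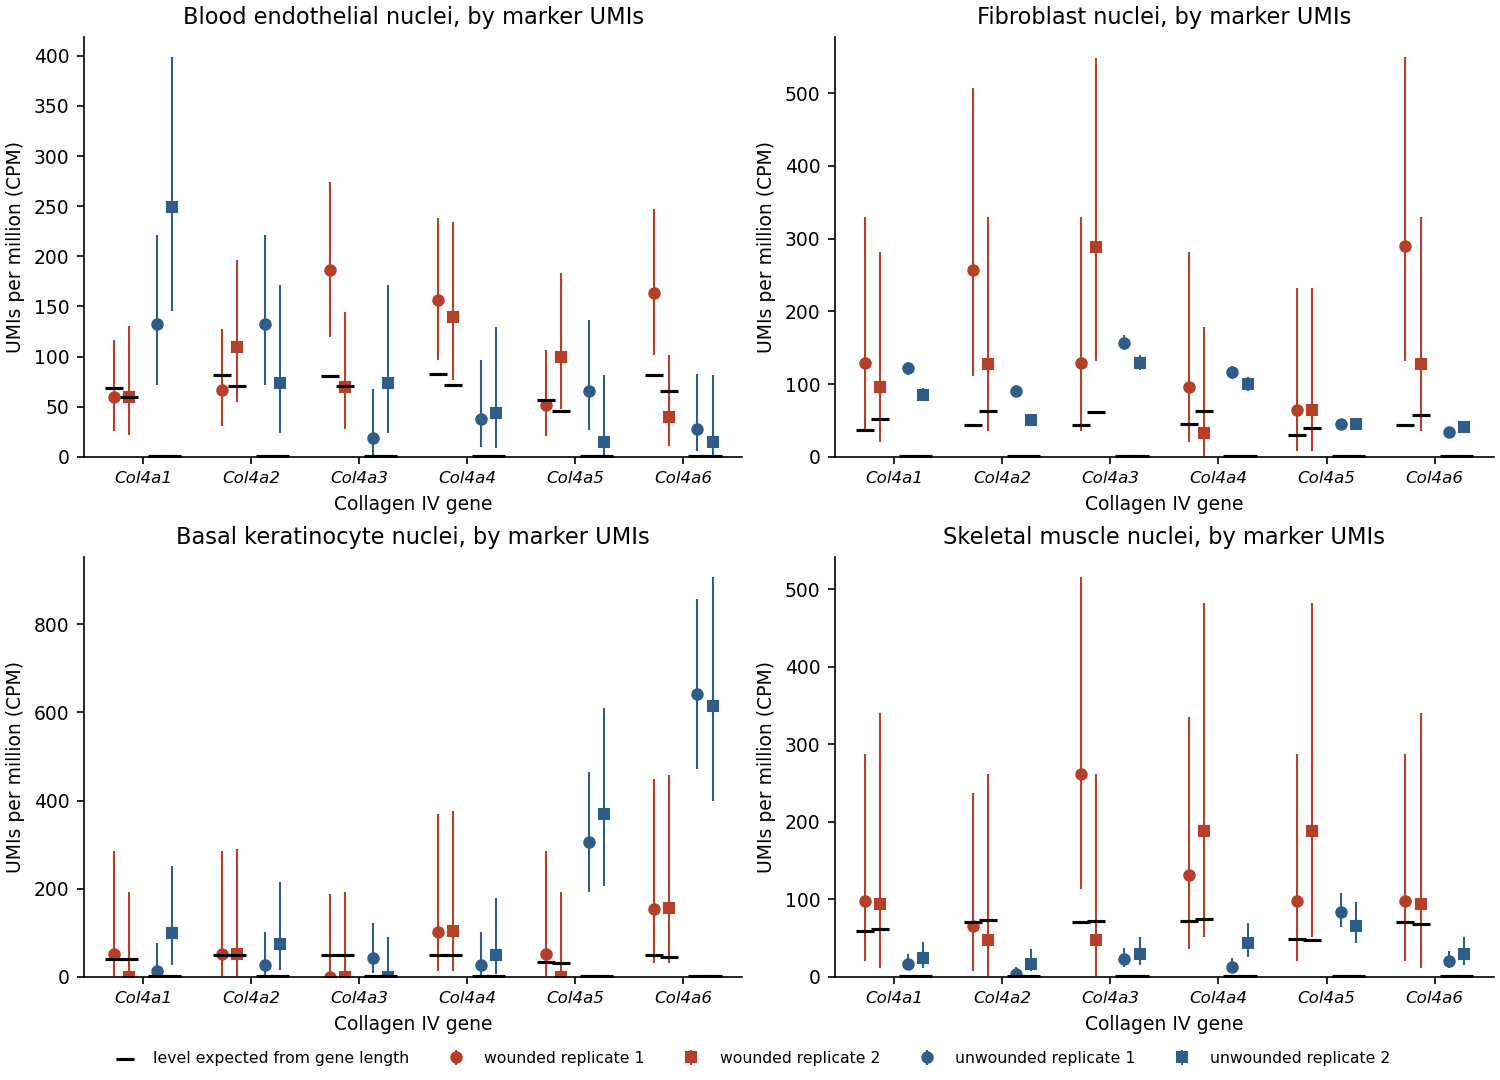
CPM of the 6 genes in the 4 types of nuclei assigned by marker UMIs in each wounded and unwounded library, with 95% Poisson intervals and the level expected from gene length in the same nuclei (black bars, scaled for the X chromosome). Wounded intervals are wide, and in basal keratinocyte nuclei both wounded values of Col4a5 and Col4a6 lie below both unwounded ones (643 and 615 CPM of Col4a6).

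Basal keratinocyte nuclei, with the most X-linked collagen IV in unwounded skin, numbered 47 and 60 in wounded and 56 and 54 in unwounded libraries. Their own markers summed to 12587 and 9656 CPM in wounded and 4443 and 5514 CPM in unwounded nuclei, and fibroblast markers (9 genes, 5 at 0 in each wounded library) to 307 and 418 against 2724 and 2806 CPM. Col4a6 was 153 and 157 CPM in wounded nuclei, from 3 UMIs each, against 643 and 615 CPM in unwounded nuclei, from 46 and 25 UMIs. The groups were far apart, and it fell by 1.42 on the log2 scale (± 0.57 SE, edgeR adjusted p = 0.040). The call was lost with RLE scaling (edgeR adjusted p = 0.064), with the replicate block (0.067), after subtraction (0.053) and without wounded replicate 1 (0.41), wounded replicate 2 (0.25) or unwounded replicate 1 (0.061). Col4a5 was 51.2 and 0 CPM in wounded nuclei, from 1 and 0 UMIs, against 307 and 369 CPM, from 22 and 15 UMIs. It did not pass the filter on low counts, and without that filter it was lower (-3.88, edgeR adjusted p = 0.017), while without either wounded library it was tested and not called (edgeR adjusted p = 0.12 and 0.30). Col4a6 was the only member that passed the filter on low counts, so 1 fell, beside 22.8% of the 474 genes tested, and 0 rose, beside 30.8%.

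Blood endothelial nuclei numbered 207 and 238 in wounded and 82 and 85 in unwounded libraries. Their endothelial markers summed to 4077 and 5719 CPM in wounded nuclei, with 988 and 859 CPM expected from length, against 9523 and 11597 CPM in unwounded nuclei. The assignment rule sets these sums in part, so their distance from the length expectation does not show what the nuclei are. Col4a1 was 59.4 and 59.8 CPM in wounded and 132 and 249 CPM in unwounded nuclei. The wounded values lay below, at 0.868 and 1.01 times the length expectation, and the log2 fold change of -0.80 ± 0.50 did not pass (edgeR adjusted p = 0.16). Col4a2 was 66.8 and 110 CPM against 132 and 73.3 CPM, which overlapped (0.42 ± 0.46, edgeR adjusted p = 0.44). Col4a4 was 156 and 139 CPM in wounded and 37.6 and 44.0 CPM in unwounded nuclei, which were apart. It rose by 2.62 ± 0.51 on the log2 scale (edgeR adjusted p = 8.7e-05), to 1.88 and 1.94 times the length expectation. Once that expectation was subtracted it no longer passed the filter on low counts and was not tested. Without that filter Col4a3 and Col4a6 were higher too (2.07 and 2.55, edgeR adjusted p = 0.0047 and 0.0028). Of the 3 genes tested 1 rose, beside 40.6% of 2858 genes, and 0 fell, beside 22.5%, with none at unadjusted p under 0.05.

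Skeletal muscle nuclei numbered 44 and 49 in wounded and 309 and 399 in unwounded libraries. Col4a5, the member highest in this type without injury, was 98.2 and 188 CPM in wounded and 83.6 and 66.1 CPM in unwounded nuclei, with 0.38 ± 0.68 on the log2 scale (edgeR adjusted p = 0.67). Col4a3 rose by 2.26 ± 0.72, from 8 and 1 wounded UMIs (262 and 47.1 CPM against 22.7 and 29.4 CPM, edgeR adjusted p = 0.0070). Col4a4 rose by 2.10 ± 0.75, from 4 wounded UMIs a library (131 and 188 CPM against 12.8 and 44.1 CPM, edgeR adjusted p = 0.017). Without wounded replicate 1, Col4a3 had 0.23 (edgeR adjusted p = 0.94) and Col4a4 2.20 (edgeR adjusted p = 0.18), and neither was called without a filter on low counts. Without either unwounded library neither passed the filter, and they were not tested. Of the 5 genes tested 2 rose, beside 15.7% of 4378 genes, and 0 fell, beside 27.3%, with none lower at unadjusted p under 0.05. Muscle markers (9 genes) summed to 3798 and 5129 CPM in wounded nuclei, with 431 and 444 CPM expected from length, against 63984 and 61845 CPM in unwounded nuclei. These sums too are set in part by the assignment rule.

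Genes that build, bind or cut the collagen IV network were read in the all-nuclei comparison, in 5 lists of 64 genes of which 63 were tested. Across the lists 17 rose and 36 fell (27.0% and 57.1%, beside 46.8% and 37.3% of all genes), with a median log2 fold change of -1.05 beside 0.37 for all genes. Among the enzymes and chaperones of collagen IV assembly and crosslinking, 12 of 16 fell (75.0%, beside 37.3% of all genes) and 1 rose (6.25%, beside 46.8%), with a median of -1.54. Serpinh1, the collagen chaperone Hsp47, was 3.81 and 3.18 CPM in wounded and 73.3 and 75.8 CPM in unwounded libraries. P4ha2, a prolyl hydroxylase subunit, was 22.9 and 11.9 against 115 and 147 CPM, and Colgalt1, a collagen galactosyltransferase, 9.53 and 7.94 against 64.7 and 50.7 CPM. Mia3, needed to load collagen into transport carriers, was 47.7 and 51.6 against 182 and 169 CPM. The wounded values of these 4 genes were between 0.738 and 2.36 times the length expectation. For the lists this expectation came from the receptor genes, and not from the nearly silent genes used for the members over all nuclei.

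Laminins, the other network formers of basement membranes, went both ways, with 5 of 11 chains rising and 4 falling (median 0.59). These shares, 45.5% and 36.4%, were near the 46.8% and 37.3% of all genes, so the counts are not a result about laminins. Lama2, the alpha chain of muscle and nerve laminin, was 458 and 426 CPM in wounded and 1032 and 973 CPM in unwounded libraries. Lamc1, the most widely used gamma chain, was 99.1 and 103 against 285 and 240 CPM. Lama1, an alpha chain of embryonic basement membranes, was 65.8 and 64.3 CPM in wounded and 3.08 and 2.70 CPM in unwounded libraries. Lamb3, a chain of the laminin beneath the epidermis, was 62.9 and 67.5 against 7.05 and 7.58 CPM. The wounded levels of both stood at the length expectation, 0.982 and 1.00 times for Lama1 and 0.865 and 0.970 times for Lamb3, and the change of Lamb3 reversed once that expectation was subtracted.

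Other basement membrane components fell in 8 of 16 cases (beside 37.3% of all genes) and rose in 6 (37.5%, beside 46.8% of all genes). Their median was -0.35, and the difference of these shares from those of all genes was not tested. Sparc, a collagen-binding matricellular protein, was 112 and 93.7 against 564 and 685 CPM and stayed at 7.28 and 6.39 times the length expectation in wounds. Col15a1, a collagen of the basement membrane zone, was 47.7 and 57.2 against 290 and 232 CPM, and Smoc2 85.8 and 103 against 218 and 212 CPM. Fras1, which anchors the epidermal basement membrane, was 192 and 194 against 22.2 and 22.4 CPM, at 0.873 and 0.923 times the length expectation in wounds, and its change reversed once that was subtracted. With the subtraction 6 of the listed genes rose in place of 17.

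Receptors fell in 6 of 12 cases (beside 37.3% of all genes) and rose in 5 (41.7%, beside 46.8% of all genes). Their median was -0.32, and here too the difference from all genes was not tested. Ddr2, a collagen-binding tyrosine kinase, was 108 and 76.2 against 427 and 402 CPM. Itgb1, the beta subunit of collagen- and laminin-binding integrins, was 61.0 and 58.0 against 138 and 133 CPM, and Dag1, dystroglycan, 80.1 and 72.3 against 155 and 140 CPM. Itgb4, the integrin subunit of hemidesmosomes, was 85.8 and 95.3 CPM in wounded and 19.9 and 22.1 CPM in unwounded libraries, at 4.77 and 5.53 times the length expectation in wounds. Of the proteases and inhibitors 6 of 8 tested genes fell (75.0%, beside 37.3% of all genes) and 0 rose (beside 46.8%), with a median of -1.77. Mmp14, a membrane-bound metalloproteinase, was 22.9 and 34.1 against 307 and 329 CPM, and Mmp2, a gelatinase that cleaves collagen IV, 53.4 and 54.0 against 105 and 106 CPM. The metalloproteinase inhibitors Timp2 and Timp3 were 18.1 and 18.3 against 178 and 151 CPM and 38.1 and 34.1 against 127 and 89.0 CPM. All 20 genes named from the lists passed edgeR's test, with adjusted p of 1.4e-06 or below, and the wounded and unwounded values of none of them overlapped.

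**Figure D5:**
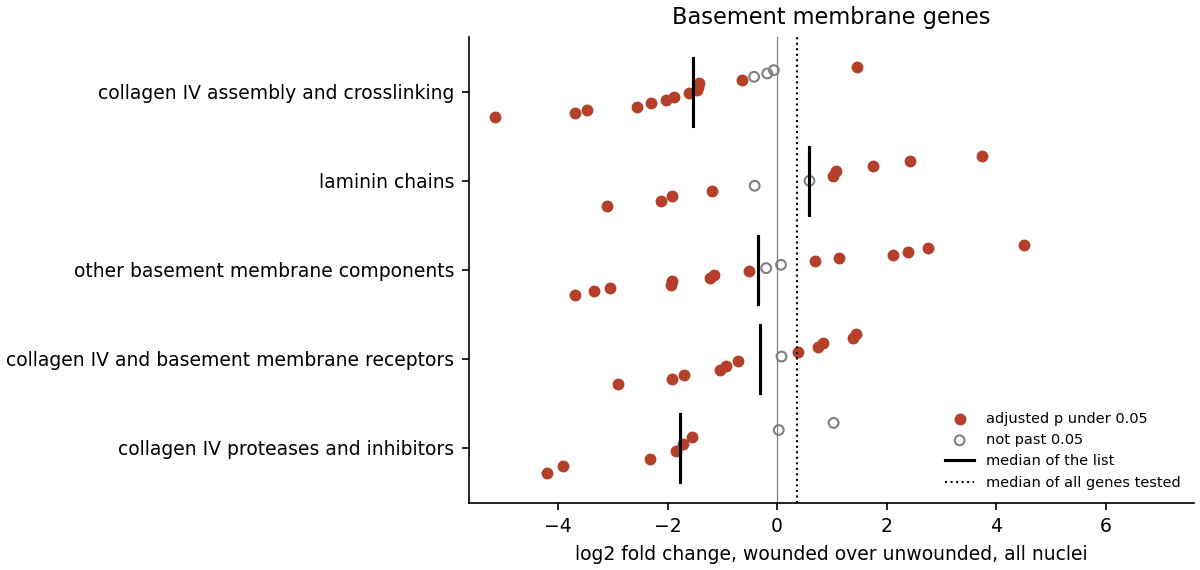
Log2 fold change of wounded over unwounded libraries over all nuclei for the genes of 5 lists, with genes past the threshold filled, the median of each list (black line) and the median of all genes tested (dotted, 0.37). The assembly and the protease lists lie to the left (medians -1.54 and -1.77), and the laminin chains fall on both sides.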

How the data were processed

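Nuclei of back skin from 2 wounded and 2 unwounded mice were measured by single-nucleus RNA sequencing with a 3′ droplet kit. The deposited matrices hold UMI counts per gene and barcode, made by the authors with Cell Ranger 5.0.1 on GRCm38, per the submitters' processing notes. Whether introns or strand were counted is not given in the sources used here. Barcodes with at least 200 genes and under 5% mitochondrial UMIs were kept, and the highest doublet scores (Scrublet's method, recomputed) were removed at 0.8% per 1000 barcodes. Nuclei were clustered in exact arithmetic (2000 variable genes without the 6 members, 30 components, 15 neighbours, Leiden resolution 1, igraph 0.11.9, seed 1) and named from 20 marker lists. An earlier floating-point version gave other clusters on another processor, and in it the fibroblast-like comparison called Col4a2 higher, so seeds 2 to 6 were added as alternatives. At resolution 2, a pair of clusters with most wounded nuclei met the sebocyte marker rule but was led by genes that are no sebocyte markers, such as the vomeronasal receptor gene Vmn2r60; they were left unnamed and not compared. For the comparison within types, clusters had been chosen first, with assignment by marker UMIs (at least 2 different markers of 1 type and more than of any other) as a second way. The second way was put in their place after the results of both had been seen, because no cluster held 30 nuclei of every library.

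UMIs were summed per library and tested with edgeR 4.0.16 (filterByExpr, TMM, quasi-likelihood), after the code was tested on simulated data; DESeq2 1.42.0 was an alternative. Median UMIs per nucleus were 353 and 300 in wounded and 869 and 451 in unwounded libraries. The replicates come from separate mice. Genes were named by a rule: the 6 members, the 4 genes of smallest p from each list, and the 5 genes most like each member. Members and lists were chosen with earlier results of these data known.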

Additional observations from a re-analysis of the deposited data

Results flagged for a closer look

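The fitted changes of 3 collagen IV genes pointed in opposite directions in different types of wounded nuclei, with all libraries and in the fits with 1 library left out that tested them. In fibroblast and skeletal muscle nuclei no member was tested without an unwounded library. In the main fits no gene passed in both directions. Without a filter on low counts Col4a6 was lower in basal keratinocyte nuclei (-2.38, edgeR adjusted p = 0.019). It was then higher in blood endothelial nuclei (2.55, edgeR adjusted p = 0.0028). Col4a4 also passed both ways without that filter, as lower in fibroblast and higher in blood endothelial nuclei. Without wounded replicate 1, Col4a4 had -2.77 in fibroblast and 2.58 in blood endothelial nuclei. The differences between types were not tested. With all libraries, the log2 fold changes of Col4a1 were -0.80 in blood endothelial, -0.83 in fibroblast and 1.78 in skeletal muscle nuclei. Those of Col4a4 were 2.62 in blood endothelial, -1.70 in fibroblast and 2.10 in skeletal muscle nuclei. Those of Col4a6 were 1.53 in fibroblast, -1.42 in basal keratinocyte and 1.54 in skeletal muscle nuclei. Of these, edgeR called Col4a4 in blood endothelial and skeletal muscle nuclei and Col4a6 in basal keratinocyte nuclei. The unwounded levels these changes start from differed widely, with Col4a6 at 643 and 615 CPM in basal keratinocyte nuclei and 19.8 and 29.4 CPM in skeletal muscle nuclei, while its wounded levels were 153 and 157 CPM and 98.2 and 94.1 CPM. In muscle nuclei Col4a1 and Col4a6 each rested on 3 and 2 wounded UMIs. In fibroblast nuclei unscaled Col4a1 overlapped between the groups, and its -0.83 lay above the median of all genes in that fit (-1.37). The medians of the other fits were 0.30 in blood endothelial, -0.16 in basal keratinocyte and -0.78 in skeletal muscle nuclei.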

How the results depend on the processing

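Over all nuclei, the fall of Col4a1 was called in every alternative run, and the rise of Col4a6 in all but the subtraction of length-expected counts (-10.42, with 0 members higher in place of 1). Thinning made 3 members higher and 1 lower in place of 2, the X-linked form of the subtraction left 1 lower, and 4 were lower without doublet removal or without a filter. Left-out libraries gave 1 to 5 lower. Col4a2 changed sign with DESeq2 (0.08), RLE (0.16), Malat1-positive barcodes (0.48), thinning (0.59) and left-out libraries (-0.37 to 0.21), Col4a4 with 400 genes (0.02), subtraction (0.01, and 0.02 in the X-linked form) and thinning (0.50), and Col4a5 with thinning (0.21). Of the lists 6 genes rose after either subtraction. The causes were not tested.

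Within fibroblast nuclei, 1 member was higher with RLE, and 2, 1, 2 and 2 were higher with clusters of seeds 1 to 4, where 1, 1 and 3 were lower with seeds 1, 2 and 4. Subtraction gave 1 lower and no filter 3, and left-out wounded libraries 0 to 1 in each direction. Col4a5 changed sign with seeds 1, 3 and 4 (1.10, 0.03 and 0.70) and Col4a2 without a filter (-0.31) and over left-out libraries (-0.18 to 0.83). No member was tested in blood endothelial nuclei after subtraction, or in fibroblast and skeletal muscle nuclei without an unwounded library. Blood endothelial nuclei had 3 higher without a filter and 1 to 3 over left-out libraries. Basal keratinocyte nuclei had 0 lower with RLE, subtraction or the replicate block, 2 without a filter and 0 to 1 over left-out libraries. Skeletal muscle nuclei had 0 higher after subtraction or without a filter (Col4a3 was not tested after subtraction) and 0 to 1 over left-out wounded libraries, and Col4a5 there changed sign without a filter (-0.61) and over left-out libraries (-0.08 to 0.65). Deviations of same-numbered libraries showed little correlation (r = 0.05 over 6917 genes), which cannot show that they shared no pairing or batch. Over all nuclei the replicate block kept every member's call.

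Unwounded levels moved with the naming. Adipocyte-like Col4a1 was 681 by marker UMIs and Col4a2 451, and Col4a2 202 at resolution 2. Fibroblast-like Col4a3 was 162 at resolution 0.5, 129 with seed 3 and 143 by marker UMIs, and Col4a4 117, 96.7 and 108, with 144 and 135 for seeds 4 and 5. Sebocyte-like Col4a5 was 87.7 by marker UMIs, from 10 and 1 UMIs in 22 and 28 nuclei. Col4a6 was 0 in those nuclei, and sebocyte-like Col4a6 was 32.7 at resolution 0.5, 35.2 with seed 3 and 35.8 without doublet removal. Wounded shares were 28.7%, 57.5% and 30.4% for Col4a1, Col4a3 and Col4a5 in Malat1-positive barcodes, no longer below both unwounded libraries for Col4a3, and 41.4% for Col4a3 with 400 genes, where the unwounded Col4a5 share was 56.5%. Wounded levels averaged 1.54, 1.72, 0.625 and 0.757 times the receptor-gene expectation for Col4a2, Col4a4, Col4a5 and Col4a6, against 1.32, 1.48, 1.26 and 1.52 with nearly silent genes, and 1.23 for Col4a2 and 1.81 for Col4a4 with 400 genes. Depth limits the wounded types most, where 1 UMI is many CPM.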
